A study of Mus musculus with 12 samples.

Results

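The neuropeptide precursors of the hippocampal dissection were examined, meaning the 10 genes *Penk*, *Pdyn*, *Pnoc*, *Tac1*, *Tac2*, *Crh*, *Adcyap1*, *Nts*, *Cort* and *Cartpt*, taken by name from 37991 counted genes and matched by Ensembl ID. They are precursors outside the main interneuron markers, and all 10 were found and passed the filter on low counts, which left 16399 genes to test. Poly(A) RNA was sequenced from hippocampi of 12 C57BL/6N mice aged 6 to 7 months, with 6 libraries labelled Wildtype from wild type siblings and 6 labelled Gadd45a-KO from Gadd45a-/- siblings bred from heterozygous parents. All 12 mice were killed 1 h after the passive avoidance (PA) test, in which a mouse learns to avoid a dark compartment where it received a foot shock, and no untrained mice are among these libraries. In the Gadd45a-/- line the first 3 exons of *Gadd45a* were replaced by a neomycin cassette in the germ line, so that every cell carries the change.

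Neuropeptides are cut from larger precursor proteins, stored in dense-core vesicles and released on strong activity, and they act on G protein-coupled receptors. *Penk* gives the enkephalins, *Pdyn* the dynorphins and *Pnoc* nociceptin, which belong to the opioid peptide family. *Tac1* gives substance P and neurokinin A, *Tac2* neurokinin B, *Crh* the corticotropin-releasing hormone of the stress response, *Adcyap1* the peptide PACAP, *Nts* neurotensin, *Cort* the somatostatin relative cortistatin and *Cartpt* the CART peptides. In the hippocampus dynorphin is best known from dentate granule cells and their mossy fibers, while several of the other precursors belong to sparse neurons or to neighboring regions.

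Between 44594261 and 55540601 reads per library fell on genes. The targeted gene went against its label: *Gadd45a* was at 2.19 to 3.43 counts-per-million (CPM) under the label Wildtype but at 20.5 to 23.1 CPM under the label Gadd45a-KO (log2 fold change 3.06, BH-adjusted p = 1.33e-10, edgeR quasi-likelihood test, where BH stands for Benjamini-Hochberg). Counts per gene do not separate the replaced exons from the one that remains, and the libraries are therefore named by label throughout. Markers of dentate granule cells summed to 224 to 509 CPM and markers of CA1 pyramidal cells to 327 to 697 CPM over the 12 libraries, while 5 hypothalamic peptide genes summed to no more than 0.451 CPM. Gadd45a-KO replicates 2 and 3 stood apart, since their thalamus markers summed to 242 and 374 CPM against 59.5 to 96.6 CPM in the others, and the oligodendrocyte markers reached 5713 CPM in Gadd45a-KO replicate 3 against 1849 to 2916 CPM in the others.

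Several precursor genes are textbook targets of the cAMP response element binding protein, and the windows of 300 bases around their start sites (250 before, 50 after) were therefore searched for its full site TGACGTCA and for the core TGACG on both strands, read as CGTCA on the other strand; the full site holds 2 cores, which overlap. RefSeq promoters of GRCm38.p6 had 9 entries for 7 of the 10 genes, *Adcyap1* and *Pdyn* having 2 each. Of these 9 promoters 6 held a core, in 5 genes and with the same site in both entries of *Adcyap1*, beside 20.8% of 32851 promoters. The full site stood in 1 of the 9, that of *Cartpt*, beside 1.79% of all promoters. The sites are shown as windows of 30 bases on the gene's own strand with the match in capitals, so that the values of genes with and without such a site can be read beside each other.
Cartpt (chr13:99900777-99900806, minus strand): ccggcgggcatTGACGTCAaacggcagcgg
Adcyap1 (chr17:93198914-93198943, plus strand): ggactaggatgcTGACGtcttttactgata
Cort (chr4:149126764-149126793, minus strand): ctccggcttgtgCGTCAccgcgtgagtgtg
Nts (chr10:102490567-102490596, minus strand): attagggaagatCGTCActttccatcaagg
Tac1 (chr6:7554852-7554881, plus strand): tccctaaaattgCGTCAtttcgaacacaat
Tac1 (chr6:7555006-7555035, plus strand): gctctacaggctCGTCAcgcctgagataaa
The windows of *Pdyn* and *Tac2* held neither. A match describes these letters only. None of the 5 genes with a site passed the test between the labels given below. Neither did *Pdyn* and *Tac2*, nor *Penk*, *Crh* and *Pnoc*, which had no promoter entry and were not searched.

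To ask which precursors carry most mRNA in the dissection, CPM was divided by exon length (RPKM), and the mean and SD were taken over the 12 libraries. *Penk* stood first at 21.4 ± 3.95 RPKM (SD, n = 12), and its lowest library, at 13.9 RPKM, was above the highest of every other precursor. *Pdyn* came next at 5.91 ± 1.35 RPKM and exceeded *Tac1*, at 3.30 ± 0.946 RPKM, in all 12 libraries, although the ranges of both overlapped between libraries. *Pnoc* at 3.15 ± 0.329, *Nts* at 2.42 ± 1.41 and *Tac2* at 2.27 ± 1.34 RPKM formed a middle group with *Tac1* in which neighbors exchanged places from library to library. *Cort* followed at 1.47 ± 0.415, *Adcyap1* at 0.775 ± 0.355 and *Cartpt* at 0.738 ± 0.260 RPKM. *Crh* was last at 0.450 ± 0.0998 RPKM, below *Cartpt* in 11 of 12 libraries. Apart from *Penk*, each gene's range overlapped that of its neighbor in this order.

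None of the 10 precursors rose or fell between the labels at 1% FDR (edgeR quasi-likelihood test, BH-adjusted), beside 2.62% of all tested genes lower and 0.0244% higher in Gadd45a-KO. At an unadjusted p of 0.05 the count was 0 by edgeR and 1 by DESeq2, which was *Tac2*. No share of all tested genes was taken at this threshold, so this count has no background beside it. The labels overlapped in CPM for all 10, whereas they did not overlap for 3.31% of tested genes. The log2 fold change was negative for 8 of the 10, with a median of -0.07 against 0.00 over all tested genes. Exact two-sided permutation tests of the mean log2 CPM gave unadjusted p from 0.145 for *Tac2* to 0.981 for *Crh*, where 6 against 6 libraries allow no p below 0.00216. In these bulk samples fewer cells of a type and less RNA per cell cannot be told apart, for any of the precursors.

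**Figure D1:**
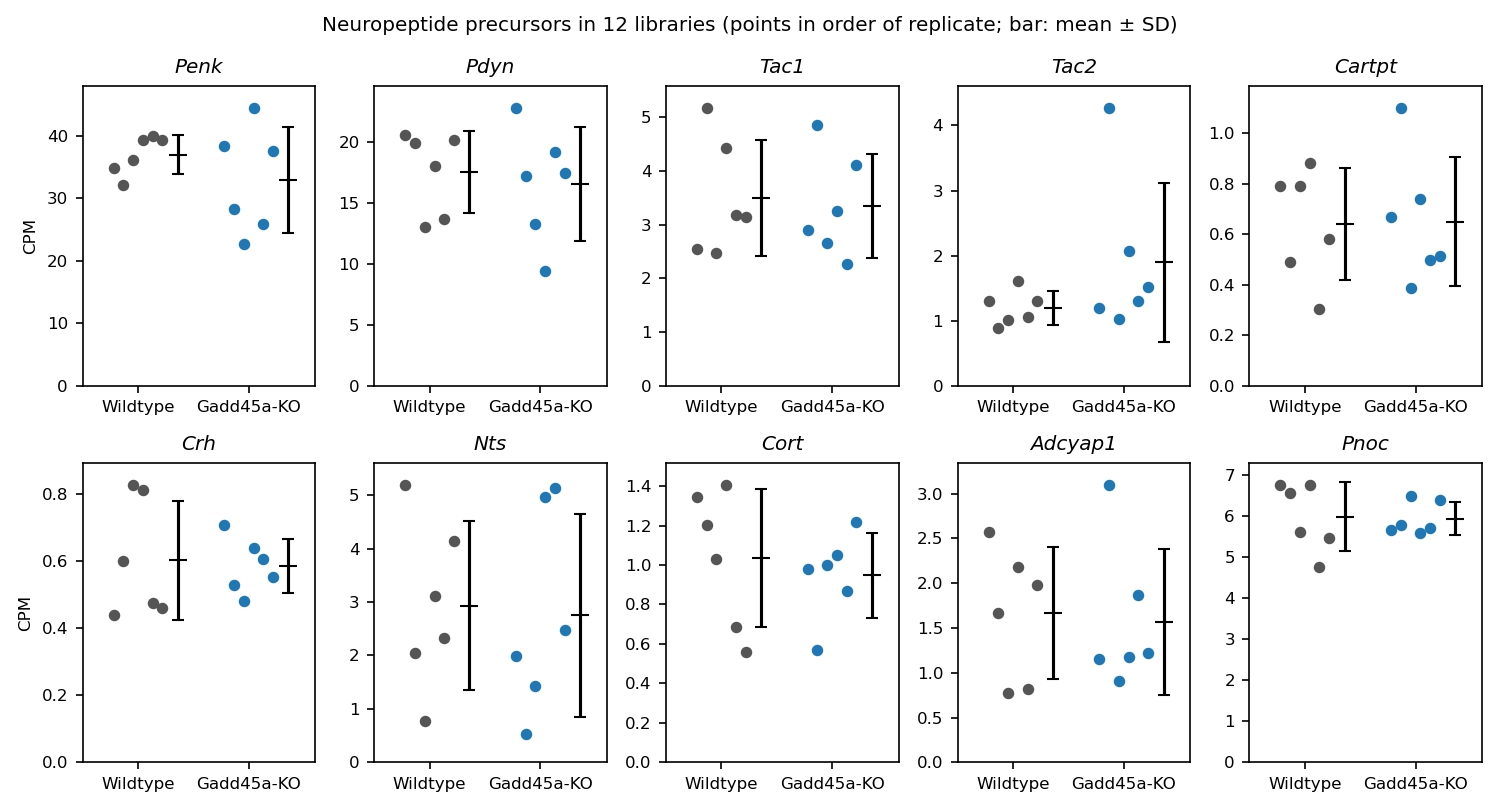
CPM (linear axis from 0) of the 10 precursors in the 6 libraries labelled Wildtype (grey) and the 6 labelled Gadd45a-KO (blue), points in order of replicate number, with the mean and SD as a bar beside them. The labels overlap in every panel, and the highest *Tac2* point, 4.26 CPM, is Gadd45a-KO replicate 2.

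**Figure D2:**
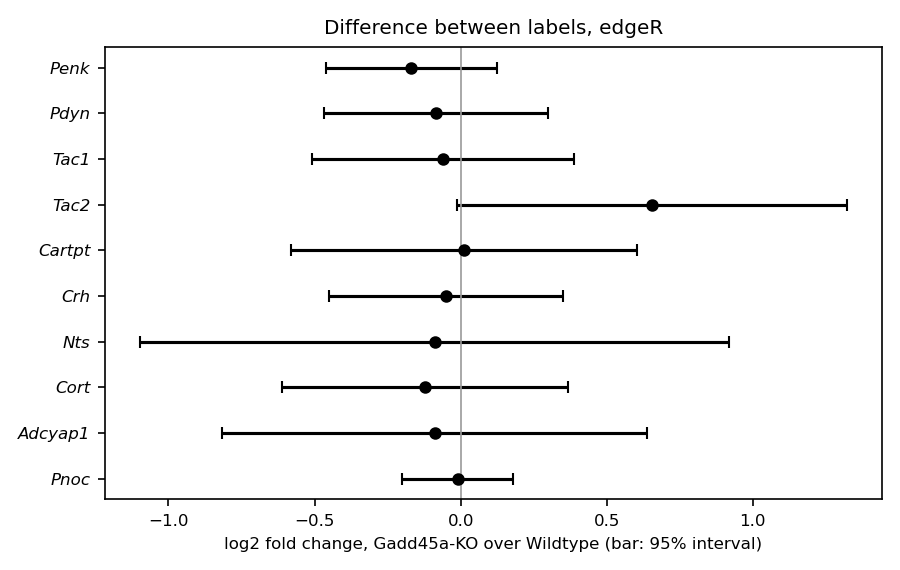
Log2 fold change of each precursor, Gadd45a-KO over Wildtype, from edgeR's quasi-likelihood fit, with bars for the 95% interval. Each interval includes 0; it is narrowest for *Pnoc*, from -0.20 to 0.18, and widest for *Nts*, from -1.10 to 0.92.

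Among the opioid precursors, *Penk* (ENSMUSG00000045573, chr4:4060678-4065966 of NCBIM37, minus strand) was at 32.1, 37.8 and 40.0 CPM as the lowest, median and highest library labelled Wildtype, and at 22.7, 33.0 and 44.4 CPM in those labelled Gadd45a-KO. The Gadd45a-KO libraries thus held both the highest value, in replicate 4, and the 3 lowest, in replicates 2, 3 and 5. The mean was 37.0 ± 3.15 CPM (SD, n = 6) in Wildtype and 32.9 ± 8.46 CPM in Gadd45a-KO, with a log2 fold change of -0.17 (SE 0.14, BH-adjusted p = 0.685, edgeR quasi-likelihood test). Without Gadd45a-KO replicates 2 and 3 the log2 fold change was -0.02. The exons of *Penk* overlap those of *A830012C17Rik* on the other strand, which the stranded counting kept apart.

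*Pdyn* (ENSMUSG00000027400, chr2:129512301-129525580, minus strand) ranged from 13.1 over a median of 19.0 to 20.6 CPM in Wildtype and from 9.44 over 17.3 to 22.8 CPM in Gadd45a-KO. Both the lowest and the highest of the 12 libraries were labelled Gadd45a-KO, replicates 4 and 1. The means of 17.6 ± 3.38 and 16.5 ± 4.65 CPM gave a log2 fold change of -0.08 (SE 0.18, BH-adjusted p = 0.911, edgeR quasi-likelihood test). *Pnoc* (ENSMUSG00000045731, chr14:66019510-66044046, minus strand) was the steadiest of the opioid precursors, with 4.75, 6.08 and 6.76 CPM as lowest, median and highest in Wildtype and 5.58, 5.75 and 6.50 CPM in Gadd45a-KO. All 6 Gadd45a-KO values lay inside the Wildtype range. Its log2 fold change was -0.01 (SE 0.09, BH-adjusted p = 0.980, edgeR quasi-likelihood test), with a 95% interval from -0.20 to 0.18.

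The fold changes of the tachykinin precursors *Tac1* and *Tac2* were not tested against each other. *Tac1* (ENSMUSG00000061762, chr6:7505071-7512973, plus strand) ran from 2.48 over a median of 3.16 to 5.16 CPM in Wildtype and from 2.27 over 3.08 to 4.86 CPM in Gadd45a-KO. The ranges nearly coincided, and the log2 fold change was -0.06 (SE 0.21, BH-adjusted p = 0.947, edgeR quasi-likelihood test). *Tac2* (ENSMUSG00000025400, chr10:127162448-127168823, plus strand) was at 0.890, 1.18 and 1.61 CPM in Wildtype and at 1.02, 1.41 and 4.26 CPM in Gadd45a-KO, from 40 to 194 reads. A single library, Gadd45a-KO replicate 2, accounted for the top of this range, and the next highest, Gadd45a-KO replicate 4, was at 2.08 CPM. The log2 fold change of *Tac2* was 0.65 (SE 0.31, 95% interval -0.01 to 1.32, BH-adjusted p = 0.380, edgeR quasi-likelihood test) and 0.26 without Gadd45a-KO replicate 2. In DESeq2 it was 0.67, with an adjusted p of 0.276.

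The precursors tied to stress signaling were at low CPM, as were *Tac2*, *Cort* and *Cartpt*. *Crh* (ENSMUSG00000049796, chr3:19593401-19595396, minus strand) had 20 to 45 reads per library, at 0.440, 0.538 and 0.827 CPM in Wildtype and 0.482, 0.579 and 0.706 CPM in Gadd45a-KO. The Gadd45a-KO libraries all fell within the Wildtype range, and the log2 fold change was -0.05 (SE 0.19, BH-adjusted p = 0.951, edgeR quasi-likelihood test). *Adcyap1* (ENSMUSG00000024256, chr17:93598762-93604825, plus strand) was at 0.772, 1.82 and 2.57 CPM in Wildtype and at 0.906, 1.19 and 3.10 CPM in Gadd45a-KO. Its highest library was again Gadd45a-KO replicate 2, and the Wildtype libraries split into 2 at 0.772 and 0.818 CPM and 4 from 1.67 CPM upward. The log2 fold change was -0.09 (SE 0.34, BH-adjusted p = 0.952, edgeR quasi-likelihood test).

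*Nts* (ENSMUSG00000019890, chr10:101944394-101953052, minus strand) was the most variable precursor, at 0.772, 2.72 and 5.19 CPM in Wildtype and 0.527, 2.23 and 5.13 CPM in Gadd45a-KO. High and low libraries occurred under both labels: Wildtype replicates 1 and 6 and Gadd45a-KO replicates 4 and 5 were above 4 CPM, and Wildtype replicate 3 and Gadd45a-KO replicate 2 were below 1 CPM. The log2 fold change was -0.09 (SE 0.47, BH-adjusted p = 0.966, edgeR quasi-likelihood test), and it was 0.31 without Gadd45a-KO replicates 2 and 3. *Cort* (ENSMUSG00000028971, chr4:148499143-148500872, minus strand) was at 0.559, 1.12 and 1.41 CPM in Wildtype and 0.571, 0.992 and 1.22 CPM in Gadd45a-KO, with a log2 fold change of -0.12 (SE 0.23, BH-adjusted p = 0.896, edgeR quasi-likelihood test). *Cartpt* (ENSMUSG00000021647, chr13:100668439-100670638, minus strand), with 16 to 50 reads, was at 0.304, 0.685 and 0.884 CPM in Wildtype and 0.386, 0.590 and 1.10 CPM in Gadd45a-KO. Its log2 fold change was 0.01 (SE 0.28, BH-adjusted p = 0.994, edgeR quasi-likelihood test) and -0.09 without Gadd45a-KO replicates 2 and 3. Gadd45a-KO replicate 2 was the highest of all 12 libraries for 3 precursors, *Tac2*, *Cartpt* and *Adcyap1*, and the lowest for *Nts*.

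**Figure D3:**
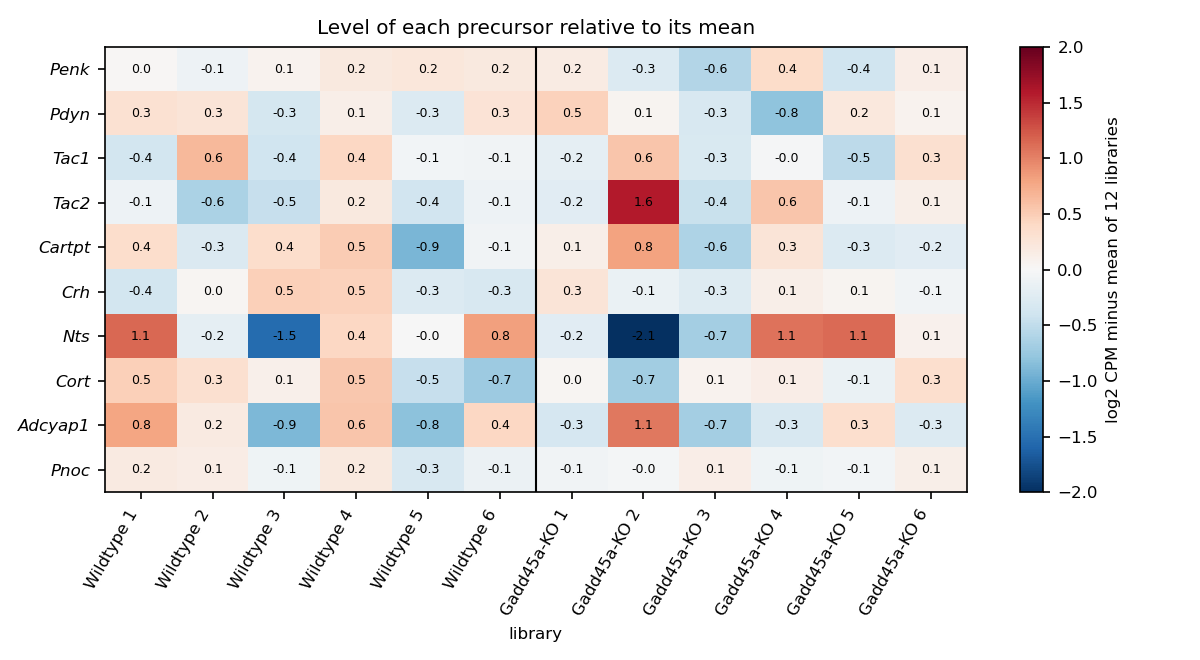
Log2 CPM (prior count 2) of each precursor in each of the 12 libraries minus the gene's mean over all 12, red above and blue below that mean, with the line between the labels; the color scale ends at 2 and -2. *Nts* has the largest deviations, down to -2.1 in Gadd45a-KO replicate 2, while *Pnoc* stays close to 0.

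Next, the spread between libraries was compared, since mice of 1 label differed far more in some precursors than in others. The biological coefficient of variation (BCV), edgeR's estimate of the spread within labels beyond counting error, was set against the trend fitted for genes of the same abundance. It was above the trend for 8 of 10 precursors, beside 25.0% of all tested genes, and above 2 times the trend for 5 of 10, beside 4.66%. These 5 were *Nts*, *Pdyn*, *Adcyap1*, *Penk* and *Tac2*, and the 2 below the trend were *Crh* and *Pnoc*. Without Gadd45a-KO replicates 2 and 3 the counts were again 8 and 5 of 10, beside 28.9% and 4.78% of the genes then tested, but *Tac2* fell to 1.30 times the trend and *Tac1* rose to 2.27 times. The median ratio of BCV to trend was 2.15 over the 10 precursors and 0.659 over all tested genes. Over 17 other neuropeptide precursors this median was 1.04. Over lists of markers of regions and cell types it ran from 0.582 for microglia to 6.44 for thalamus.

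For *Nts* the BCV was 66.8% against a trend of 14.9%, 4.47 times as high, and the highest library exceeded the lowest 9.85-fold. *Adcyap1* had 45.7% against 17.1%, *Tac2* 40.6% against 17.2%, *Pdyn* 25.1% against 8.97% and *Penk* 19.1% against 7.57%. The BCV of *Penk* and *Pdyn* was thus smaller in percent than that of these 3, while its ratio to the trend was 2.53 and 2.80. Above the trend by less than 2 times were *Tac1* at 27.9% against 14.3%, *Cartpt* at 32.6% against 19.5% and *Cort* at 26.9% against 18.5%. *Pnoc* had 9.50% against a trend of 12.4% and *Crh* 14.6% against 19.6%. At these read numbers counting error alone gave a coefficient of variation of 2.39% for *Penk*, 8.45% for *Nts* and 18.3% for *Crh*, and the 13.9% seen for *Crh* among Gadd45a-KO libraries was below the latter.

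**Figure D4:**
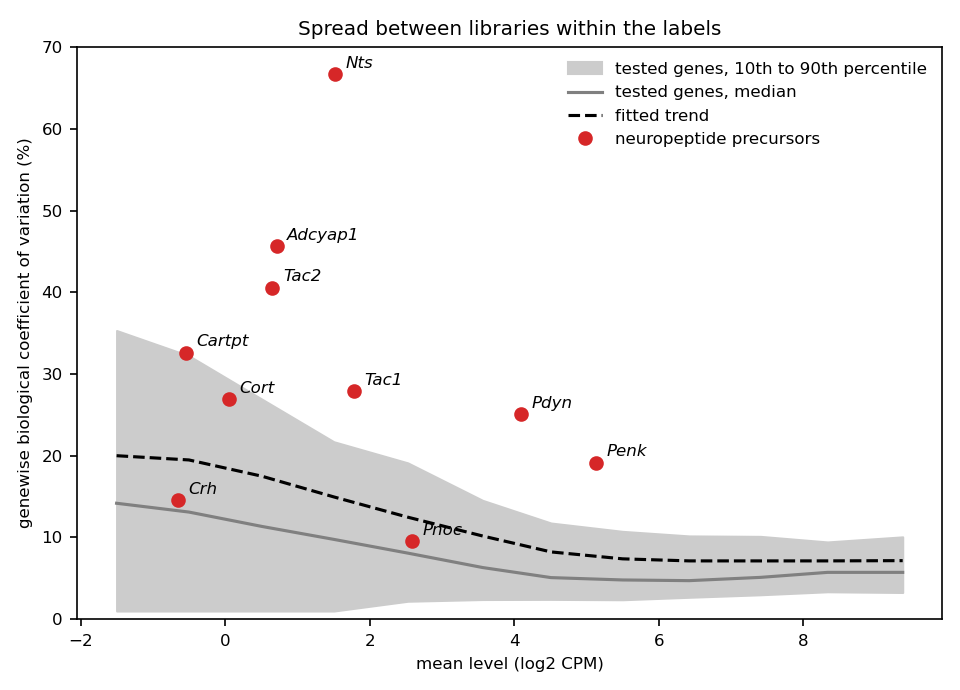
Genewise BCV in percent (linear axis) against mean level in log2 CPM, with the 10th to 90th percentile (grey band) and median (grey line) of all tested genes in bins of 1 log2 unit, the fitted trend (dashed) and the 10 precursors (red). *Nts*, at 66.8%, lies farthest above the trend, and *Crh* and *Pnoc* lie below it.

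Whether the spread itself differed between the labels was tested with the absolute deviations from each label's median (exact two-sided permutation test). *Penk* had an SD of log2 CPM of 0.13 in Wildtype and 0.38 in Gadd45a-KO, 3.01 times as large, with an unadjusted exact permutation p of 0.00649. *Pnoc* went the other way, with SDs of 0.21 and 0.10, a ratio of 0.465 and an unadjusted exact permutation p of 0.0411. Over all 16399 genes 4.55% had an unadjusted p under 0.05, and neither precursor passed after Benjamini-Hochberg adjustment, with adjusted permutation p of 0.747 for *Penk* and 1 for *Pnoc*. No tested gene passed, the smallest adjusted permutation p of any being 0.394. With 6 against 6 libraries the exact p cannot fall below 0.00216. The adjustment could therefore hardly pass any single gene, and it does not set these precursors apart from the rest. The SD was larger in Gadd45a-KO for 4 of 10 precursors. The median ratio of SDs was 0.940 over the precursors and 1.04 over all tested genes. For *Tac2* the ratio of SDs was 2.47, and it fell to 1.27 without Gadd45a-KO replicate 2 (exact permutation p = 0.316 with all libraries).

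The levels of some precursors moved with markers of hippocampal fields or of neighboring regions, in relations of which none passed after adjustment. *Pdyn* followed the mean log2 CPM of 6 dentate granule cell markers (*Prox1*, *Dsp*, *C1ql2*, *Tdo2*, *Npnt* and *Trpc6*) within both labels. Pearson's r was 0.984 in Wildtype (n = 6, exact permutation p = 0.00417) and 0.988 in Gadd45a-KO (n = 6, exact permutation p = 0.00278), and Spearman's rho was 0.943 in each (exact permutation p = 0.0167). Without the 2 libraries farthest from the median of the markers, r was 0.975 and 0.946. The markers summed to 224 CPM in Gadd45a-KO replicate 4, the library with the lowest *Pdyn*, and to 349 to 509 CPM in Wildtype. *Pdyn* also moved with the thalamus markers in Wildtype (r = 0.943, n = 6, exact permutation p = 0.00139, the smallest of all relations computed; rho 1, exact permutation p = 0.00278; r 0.946 without the 2 farthest libraries) but in Gadd45a-KO r was -0.12 (n = 6, exact permutation p = 0.836; rho 0.029, exact permutation p = 1). With the striatum markers r was 0.897 in Wildtype (n = 6, exact permutation p = 0.0403; rho 0.543, exact permutation p = 0.297) and -0.51 without the 2 farthest libraries, so that this relation rested on those libraries.

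*Penk* moved with the 3 tested CA1 pyramidal cell markers *Wfs1*, *Fibcd1* and *Mpped1*. These summed to 352, 327 and 346 CPM in Gadd45a-KO replicates 2, 3 and 5, where *Penk* was lowest, and to 697 CPM in replicate 4, where it was highest, against 451 to 625 CPM in Wildtype. Pearson's r was 0.872 in Wildtype (n = 6, exact permutation p = 0.0153; rho 0.943, exact permutation p = 0.0167) and 0.975 in Gadd45a-KO (n = 6, exact permutation p = 0.00556; rho 1, exact permutation p = 0.00278). Without the 2 farthest libraries r was 0.994 in Gadd45a-KO but 0.544 in Wildtype, so that the relation in Wildtype rested on those libraries.

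*Nts* moved with 8 markers of neocortex and parahippocampal cortex in Wildtype, with r = 0.973 (n = 6, exact permutation p = 0.00833; rho 0.886, exact permutation p = 0.0333) and 0.907 without the 2 farthest libraries. In Gadd45a-KO r was 0.526 (n = 6, exact permutation p = 0.275; rho 0.429, exact permutation p = 0.419). The difference between these values was not tested. *Tac2*, which is known for strong expression in the medial habenula, moved with 4 tested habenula markers in Gadd45a-KO, with r = 0.983 (n = 6, exact permutation p = 0.00417; rho 0.943, exact permutation p = 0.0167) and 0.755 without the 2 farthest libraries. In Wildtype r was 0.219 (n = 6, exact permutation p = 0.651; rho 0.371, exact permutation p = 0.497). With the same markers in Gadd45a-KO, r was also 0.902 for *Cartpt* (n = 6, exact permutation p = 0.00694; rho 0.943, exact permutation p = 0.0167), 0.792 for *Tac1* (n = 6, exact permutation p = 0.0403; rho 0.886, exact permutation p = 0.0333) and 0.772 for *Adcyap1* (n = 6, exact permutation p = 0.0847; rho 0.60, exact permutation p = 0.242). Without the 2 farthest libraries these were 0.554, 0.915 and -0.08, so that those of *Cartpt* and *Adcyap1* rested on these libraries.

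All 5 habenula markers summed to 11.7 CPM in Gadd45a-KO replicate 2, the library with the highest *Tac2*, and to 1.62 to 2.88 CPM in the 11 others. There *Gpr151* reached 5.87 CPM against at most 1.16 CPM elsewhere, and *Pou4f1* 2.42 CPM against at most 0.0890 CPM. *Chrnb4* and *Chrna3* were also highest there, while *Slc5a7* was not. The relations described were singled out after their values were seen, from 300 that pair 1 of 10 precursors with 1 of 15 marker lists within 1 of 2 labels. Of these 300, 23 had an unadjusted exact permutation p of Pearson's r under 0.05. None passed after adjustment, with a smallest adjusted permutation p of 0.312. With 6 libraries no exact permutation p can fall below 0.00139, the value of *Pdyn* with the thalamus markers in Wildtype. Over 300 relations the adjustment could therefore hardly pass any single one, and it does not set the relations described apart from the others. The part of the dissected fields and regions in the spread of the precursors was not tested.

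**Figure D5:**
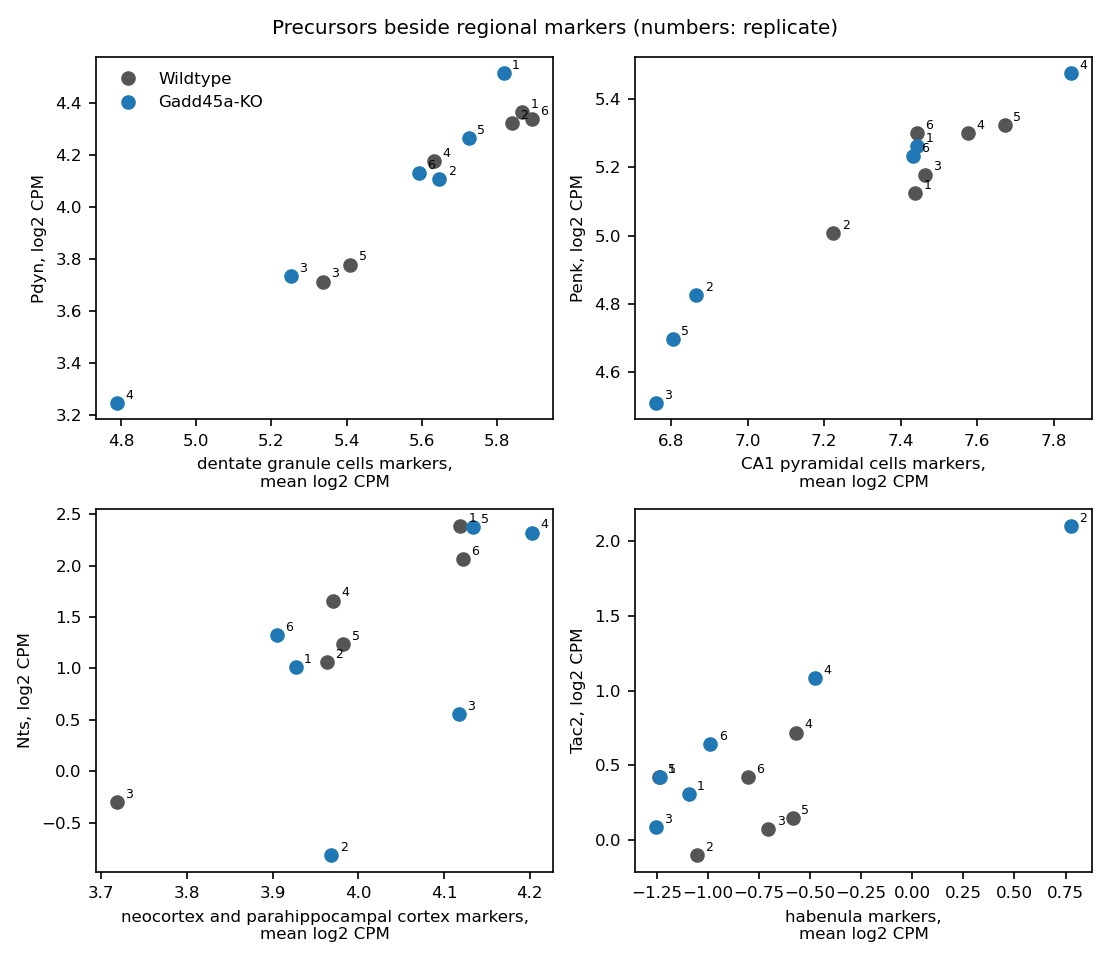
Log2 CPM of *Pdyn*, *Penk*, *Nts* and *Tac2* against the mean log2 CPM of markers of dentate granule cells, CA1 pyramidal cells, neocortex and parahippocampal cortex, and habenula, 1 point per library with its replicate number, Wildtype grey and Gadd45a-KO blue. *Pdyn* and *Penk* rise with their markers within both labels, but for *Penk* in Wildtype the relation rested on the 2 farthest libraries. Gadd45a-KO replicate 2 stands alone at the top of the *Tac2* panel.

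For each precursor, the tested genes with a mean of at least 1 CPM whose pattern was most like it were sought by Pearson's r of log2 CPM, centered within labels, over the 12 libraries. For *Nts* these were *Rxfp1* (0.979), *Nxph3* (0.976) and *Tshz2* (0.939), the last of which is in the cortical marker list above. *Pdyn* was most like *Kcng1* (0.976), *Tiam2* (0.969) and *Ets2* (0.963), and *Penk* was most like *B3gat1* (0.968), *Kcnh7* (0.964) and *Tbc1d1* (0.961). *Cort* led with *Aprt* (0.941), *Slc38a7* (0.929) and *Zdhhc7* (0.922), *Pnoc* with *Ogfr* (0.929), *Dcxr* (0.925) and *2610002I17Rik* (0.910), and *Adcyap1* with *Pdrg1* (0.907), *Bud13* (0.900) and *Pcsk5* (0.897). The likeness was looser for *Cartpt*, with *Bcdin3d* (0.903), *Trmu* (0.850) and *Ercc1* (0.843), for *Crh*, with *Ndrg3* (0.868), *Fkbp7* (0.841) and *Sla2* (0.816), for *Tac1*, with *Nxn* (0.834), *Rnf181* (0.831) and *Thrsp* (0.824), and for *Tac2*, with *Ovgp1* (0.833), the habenula marker *Gpr151* (0.826) and *Tpd52l2* (0.826). For *Tac2* these values fell to 0.410, 0.402 and 0.554 without the 2 libraries in which *Tac2* was farthest from the mean of its label. These are the highest values among all genes compared and are given as a description.

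Finally, the receptors on which these peptides act were examined. Of 21 receptors and binding proteins, 18 passed the filter; 1 rose in Gadd45a-KO at 1% FDR, none fell, and 17 did not pass (edgeR quasi-likelihood test, BH-adjusted), with a median log2 fold change of 0.00. The gene that rose was *Tacr1*, the receptor of substance P. It ran from 1.19 over a median of 1.46 to 1.71 CPM in Wildtype and from 1.66 over 2.26 to 2.79 CPM in Gadd45a-KO, from 54 to 127 reads. In the latter, 5 of 6 libraries were above the whole Wildtype range, and replicate 3 lay inside it. The log2 fold change was 0.61 (SE 0.12, BH-adjusted p = 0.00892, edgeR quasi-likelihood test). Without Gadd45a-KO replicates 2 and 3 it was 0.61 (adjusted p = 0.00815), but leaving out single libraries took the adjusted p to between 0.00264 and 0.0248, past the 1% threshold for 10 of the 12, all but Wildtype replicate 4 and Gadd45a-KO replicate 3 (edgeR quasi-likelihood test, BH-adjusted). With the replicate number as a block in the fit, *Tacr1* did not pass at 1% FDR either. *Tac1*, the precursor of substance P, had a log2 fold change of -0.06.

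*Adcyap1r1*, the main PACAP receptor, was at 231 ± 25.2 CPM in Wildtype and 195 ± 15.0 CPM in Gadd45a-KO (SD, n = 6), and 5 of 6 Wildtype libraries were above every Gadd45a-KO library. Its log2 fold change was -0.25 (SE 0.07, BH-adjusted p = 0.0859, edgeR quasi-likelihood test). *Vipr2*, which also binds PACAP, reached 7.60 and 16.2 CPM in Gadd45a-KO replicates 2 and 3, the libraries with high thalamus markers, and 0.441 to 1.18 CPM in the others; its log2 fold change was 2.48 (SE 0.77, BH-adjusted p = 0.104, edgeR quasi-likelihood test). The part of the thalamus markers in this difference was not tested. The opioid receptors *Oprd1*, *Oprk1* and *Oprl1* had log2 fold changes of 0.02, -0.07 and 0.04, and *Oprm1*, at no more than 0.399 CPM, was among the 3 genes below the filter with *Tacr2* and *Sstr5*. *Crhr1* and its partner *Crhbp*, which binds the hormone outside cells, had -0.14 and -0.06. *Ntsr1*, *Ntsr2* and *Sort1*, which bind neurotensin, had -0.12, 0.04 and 0.00. None of these passed the test.

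The enzymes that process precursors and the proteins of dense-core vesicles did not pass either, with 0 of 15 lower and 0 of 15 higher at 1% FDR and a median log2 fold change of 0.00. Among them the convertases *Pcsk1* and *Pcsk2* had log2 fold changes of -0.13 (SE 0.13) and 0.07 (SE 0.05). Of 37 other neuropeptide precursors 17 passed the filter, and none rose or fell, with a median of -0.03. Of 16 activity-induced genes none rose or fell, and 14 had a negative log2 fold change. Their median was -0.13, against 0.00 over all tested genes. The share of negative values over all tested genes was not taken, so the count of 14 has no background beside it. A p that misses the threshold does not show that levels did not differ.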

How the data were processed

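Hippocampal poly(A) RNA of 12 mice was analyzed, grouped by the sample labels. The authors prepared stranded libraries, aligned single reads with TopHat 1.4.1 to NCBIM37/mm9 and deposited raw read counts per gene of Ensembl 66 made by htseq-count (HTSeq 0.5.4p3) in reverse-strand mode, without normalization or pooling; their own testing used DESeq 1.16.0. Rows without a gene were left out. Reads without a gene were 14.4% to 15.8% of those on genes, on no gene or ambiguous in Wildtype, and 13.0% to 14.3% in Gadd45a-KO. The labels did not overlap in this share, and its part in the comparisons of CPM was not tested.

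Genes were named and measured from GENCODE M1, of the same build, which held 37205 of 37991 IDs. The 10 members and all gene lists were chosen with earlier results of these data known. Counts were filtered with filterByExpr, scaled by TMM and tested with edgeR 4.0.16 (R 4.3.3), quasi-likelihood, without covariates, at 1% FDR after the study. SE is the log2 fold change over the root of F. Log2 CPM used a prior count of 2. DESeq2 1.42.0, RLE scaling, 5% FDR, testing without the filter or with a minimum of 10 counts per library, a prior count of 0.5, the replicate block and leaving out each library were alternatives; leaving out Gadd45a-KO replicates 2 and 3 together was chosen after seeing the data. Permutation tests enumerated all 924 splits for levels and spread and all 720 pairings for correlations in Python 3.11.15, with ranks from scipy 1.17.1. Procedures were tested on simulated data. Named genes were all members, listed genes at 1% FDR, the receptors and the 3 most similar genes per member. One read is 0.0180 to 0.0224 CPM.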

Additional observations from a re-analysis of the deposited data

Results flagged for a closer look

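*Tac2* in Gadd45a-KO replicate 2, at 4.26 CPM, was far from the other 5 libraries of its label, which were between 1.02 and 2.08 CPM. It was 1 of 20 sets of 6 libraries (10 precursors under 2 labels) examined for a single high or low library, where chance gives about 1 in 20.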

How the results depend on the processing

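The 10 precursors stayed at 0 lower and 0 higher under all alternatives run. Over all genes, 430 were lower and 4 higher in Gadd45a-KO; 5% FDR gave 726 and 20, DESeq2 661 and 19, and the fit without Gadd45a-KO replicates 2 and 3 gave 199 lower. Leaving out single libraries gave 239 to 467 lower and 3 to 4 higher. With the replicate number as a block 509 were lower and 5 higher and no precursor passed. Same-numbered libraries correlated above 0.1 in 5 of 6 pairs, with a mean of 0.140 against -0.028 for different numbers. The pair of replicate 6 was at -0.076, and 4 of 12 libraries correlated best with their own number. Whether the numbers mark a shared batch was not tested, and the main fit did not use them as pairs. *Tacr1* lost its call under the block (adjusted p = 0.0147, edgeR quasi-likelihood test, BH). Directions of small differences moved with single libraries. Leaving out each in turn, the log2 fold change ran from -0.19 to 0.041 for *Pdyn*, -0.19 to 0.088 for *Tac1*, -0.19 to 0.14 for *Cartpt*, -0.11 to 0.070 for *Crh*, -0.35 to 0.16 for *Nts*, -0.39 to 0.083 for *Adcyap1* and -0.060 to 0.037 for *Pnoc*. The ratio of SDs, Gadd45a-KO over Wildtype, ran from 0.962 to 1.83 for *Pdyn*, 0.750 to 1.22 for *Tac1*, 0.645 to 1.48 for *Cartpt*, 0.849 to 2.16 for *Nts* and 0.506 to 1.00 for *Adcyap1*. Without Gadd45a-KO replicates 2 and 3 the log2 fold change was -0.085 for *Cartpt*, 0.043 for *Crh* and 0.31 for *Nts*, and the ratio of SDs for *Nts* was 0.728; the pooled SD of *Tac2* fell from 0.561 to 0.315. The cause was not tested. Depth limits *Crh* and *Cartpt*, where counting error alone gave a coefficient of variation of 18.3% and 17.7%.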

Other observations

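Among the other peptide genes, the spread between libraries was also uneven. The precursors *Grp*, *Sst* and *Gal* had a BCV of 4.20, 3.08 and 2.51 times the trend. In that list 3 of 17 tested were above 2 times the trend. *Gal* had only 0 to 24 reads per library, where counting error alone gave a coefficient of variation of 28.1%. *Grp*, the precursor of gastrin-releasing peptide, ran from 1.14 to 5.76 CPM in Wildtype and from 1.25 to 5.39 CPM in Gadd45a-KO, so that both labels covered the same range. Among 15 genes of peptide processing and dense-core vesicles, *Pcsk1n*, *Vgf* and *Cadps2* were above 2 times the trend, at 6.58, 3.32 and 2.52. *Pcsk1n*, which encodes an inhibitor of a prohormone convertase, ran from 34.2 to 153 CPM in Wildtype and from 31.7 to 103 CPM in Gadd45a-KO. The vesicle cargo genes *Chgb*, *Chga*, *Scg3* and *Scg2* were steadier, at 1.52, 1.21, 0.947 and 0.802 times the trend.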
